A study of Mus musculus with 8 samples.

Results

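Semaphorins, ephrins, Slits and netrins, with the receptors they bind, are the classical guidance genes, and 70 genes carrying such a symbol were followed here in dermal fibroblasts from young and old mice, out of 17097 genes measured. A gene entered when its symbol in the array's annotation began with Sema, Plxn, Epha, Ephb, Efna, Efnb, Robo, Ntn or Unc5, was a Slit gene, or was Nrp1 or Nrp2. The symbol decided alone, so 3 entries that are not guidance ligands or receptors came along: Unc50, Unc5cl and the transcript Plxna4os1, which is named for lying opposite Plxna4. The remainder comprised 35 ligands and 32 receptors.

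Skin was taken from 8 male mice of strain C57Bl/6, 4 aged 2 months (young) and 4 aged 18 months (old), and each mouse gave 1 Affymetrix array. After removal of the subdermis, flow cytometry kept cells with Pdgfra and CD34 on their surface and discarded cells with CD45, CD31, CD24, CD117 or EpCam. No genetic change or treatment is given for either age, and the comparison asks what differs with age. Values are log2 expression, so a difference of 1 is a doubling, and every difference is the old mean minus the young mean, given with its standard error (SE). A gene was called higher or lower when its limma p, adjusted by Benjamini-Hochberg over all genes, was under 0.05. Probe sets whose brighter age lay under 5.10, the median of all probe sets' means, are termed dim.

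Guidance molecules were named for steering axons, but they act wherever cells sort, migrate or hold borders, including vessels and skin. Secreted class 3 semaphorins bind a neuropilin, which has little signalling of its own, and signal through a plexin of the A group, while most membrane-bound semaphorins bind plexins directly. Ephrins are cell-surface ligands of Eph receptors and can signal back into the cell that carries them, Slits bind Robo receptors, and netrins bind Dcc, neogenin or Unc5 receptors. Fibroblasts carry many of these ligands and receptors at once, and neuropilin 1 also binds vascular endothelial growth factor (VEGF).

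The arrays were alike in scale, with medians from 5.06 to 5.14, and 50 of the 70 guidance genes were above the dim threshold in at least 1 age. Of 10 fibroblast markers, 9 were above that threshold and Thy1 was lower in old mice (-0.61, adjusted p = 0.00176). The exception was Pdgfra, a marker of the sort, whose single probe set averaged 5.06 in young and 4.47 in old mice (adjusted p = 0.0808). Endothelial markers had 5 of 11 above the threshold and none called, with a list mean of 4.85 to 5.09 in young and 4.95 to 5.09 in old mice, and Cdh5 at 5.28 in both. Leukocyte markers had 5 of 10 above the threshold and none called, with a list mean of 5.12 to 5.23 in young and 5.20 to 5.27 in old mice. Among them Csf1r was at 8.85 in young and 8.82 in old mice, while Ptprc was dim, at 3.43 and 3.51. Keratinocyte markers had 7 of 9 above the threshold and none called, but old mouse 3 stood apart, with Krt10 at 9.13 against 6.23 to 7.21 in the other 7 mice. Among them Krt5 differed by 1.12 (adjusted p = 0.221) and Trp63 by -0.33 (0.534). Krt14, Krt15, Trp63 and Cdh1 were highest in mice other than old mouse 3. Epcam, which the sort selects against, was higher in every old mouse than in every young mouse without passing (5.05 and 5.45, adjusted p = 0.0584). Melanocyte markers averaged 5.27 to 5.49 in young and 5.76 to 5.86 in old mice, with Mlana higher in old mice (2.88, adjusted p = 0.00194), while the other 7 differed by -0.085 to 0.57 with no call. Pericyte markers averaged 5.43 to 5.61 and 5.61 to 5.72, with Kcnj8 higher (1.16, adjusted p = 0.0035), while the other 6 differed by -0.10 to 0.09 with no call. The part of these cell types in the guidance differences was not tested, and in bulk RNA fewer cells of a type cannot be told apart from less RNA per cell.

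In old fibroblasts 6 guidance genes were lower and 0 were higher by limma. Nrp1, Sema3a, Efna1, Sema5a, Ntng2 and Sema3g fell, by 0.495 to 1.09 on the log2 scale. These 6 make up 8.57% of the 70, against 3.97% of all genes called in either direction (2.15% lower and 1.82% higher). Among genes above the dim threshold, 12% of the guidance genes and 6.06% of all genes were called. This threshold used the brighter age, so it favours genes that differ between the ages, here and in the other shares above it. Sema3g, among the 6, passed it through young mice alone (5.17 in young, 4.68 in old, 4.925 over all arrays). A refit of genes whose mean over all arrays was not under 5.10 held 49 guidance genes. That refit called 7 lower and 4 higher, with 5 of the 6 among them. The values of young and old mice did not overlap for 17 guidance genes (24.3%), old mice lying below in 13 and above in 4. Over all genes the ages did not overlap for 9.7%. Above the dim threshold these shares were 26% of the guidance genes and 13.4% of all genes. The median difference of the 70 genes was -0.014, beside 0.01 over all genes, and the median size of the difference was 0.14 beside 0.083.

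The lack of a higher call depended on the fit. At an unadjusted p under 0.05, 8 guidance genes were higher and 16 lower (34.3%), beside 15.1% of all genes at that level. Above the dim threshold it was 40% of the guidance genes and 21.6% of all genes. With the title numbers of the samples as a block, 4 were higher (Epha1, Ntn1, Sema4a and Slit2) and 11 lower (the 6 with Efnb1, Efnb2, Robo2, Sema4d and Sema4f), and the gene-wise mean of all probe sets also gave 4 higher calls (Epha1, Ntn1, Ntn4 and Sema3c). The title numbers form 2 consecutive runs, each with 2 young and 2 old mice. Mice were taken on days with that same makeup, but the labels do not tie a mouse to a day. Without young mouse 4, Efnb3, Ntn1, Ntn4 and Slit2 were called higher, and without old mouse 1 Sema4a was.

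**Figure D1:**
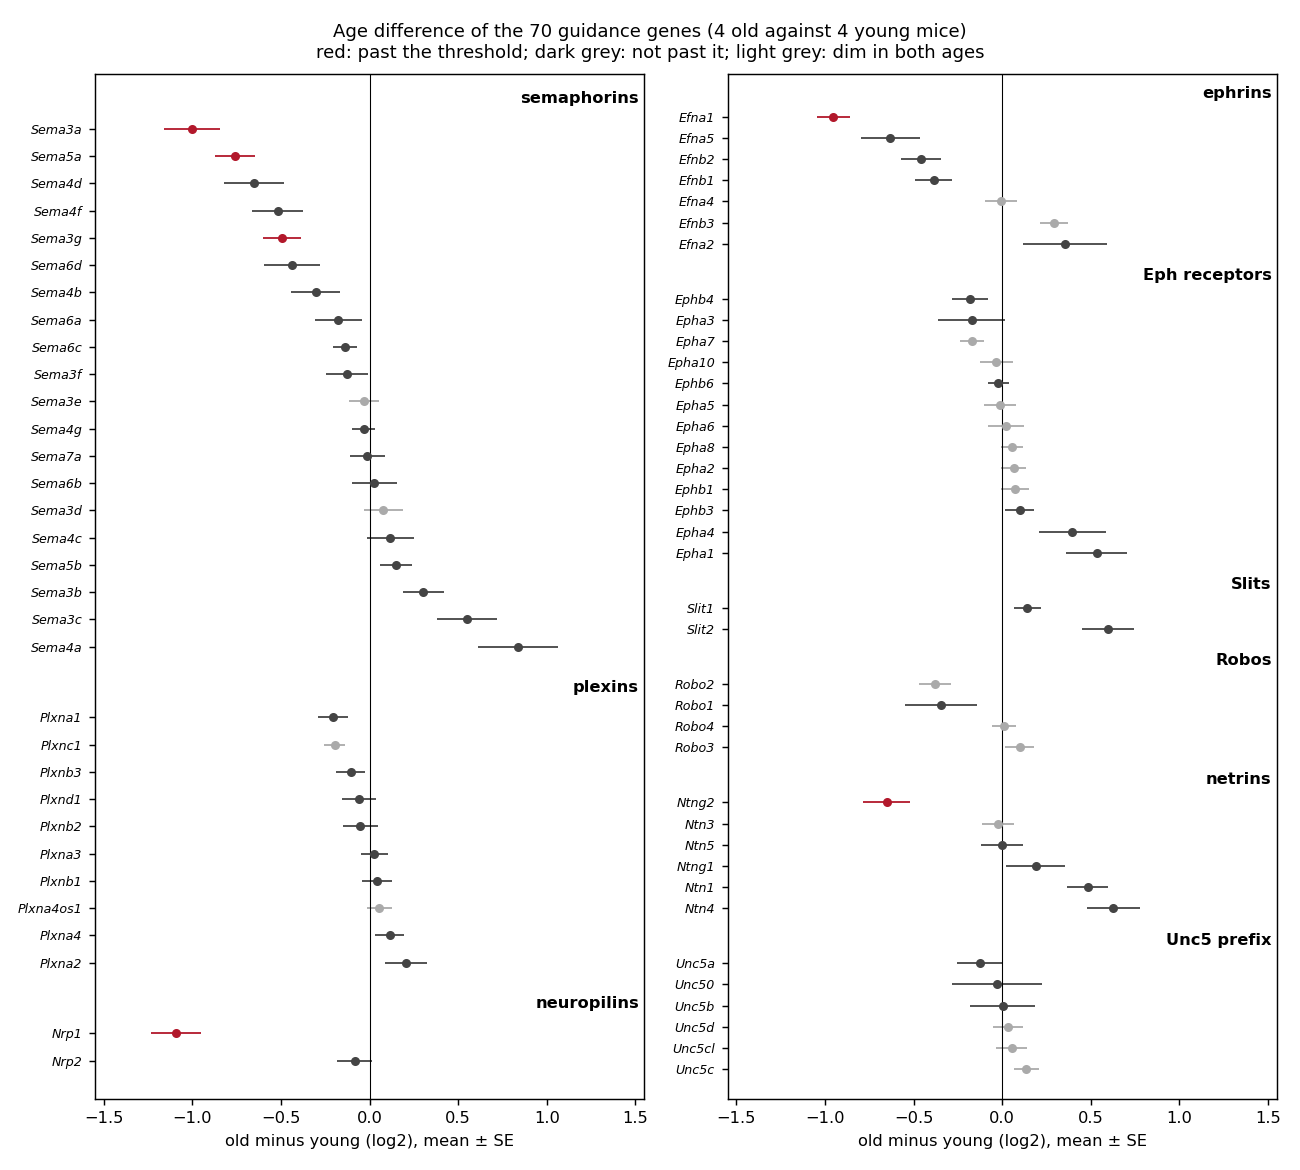
Difference of each of the 70 genes between 4 old and 4 young mice (log2, horizontal axis), by family, with bars giving the SE. Red points are the 6 genes past adjusted p under 0.05 and all lie left of 0, down to -1.09 for Nrp1. Dark grey points did not pass, reaching 0.84 for Sema4a, and light grey points are dim in both ages.

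Ligands held 5 of the 6 calls. Among 35 ligands, 5 were lower and 0 higher, 18 had an unadjusted p under 0.05 (11 lower, 7 higher), and the ages did not overlap for 13. Among 32 receptors, 1 was lower (Nrp1) and 0 higher, 6 had an unadjusted p under 0.05 (5 lower, 1 higher), and the ages did not overlap for 4. The median size of a difference was 0.305 for ligands and 0.098 for receptors. More ligands than receptors were above the dim threshold, 30 of 35 against 19 of 32, and the difference between the roles was not tested. Of all genes above that threshold, 6.06% were called, 21.6% had an unadjusted p under 0.05, and the ages did not overlap for 13.4%. These shares are also the background for the family counts below.

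Neuropilin 1 (Nrp1), the co-receptor for class 3 semaphorins and VEGF, had the largest difference among the 6. Its level was 8.45, 8.78, 8.84 and 8.48 in the young mice and 7.17, 7.77, 7.60 and 7.64 in the old mice. Every old mouse lay below every young mouse, with old mouse 1 lowest. The means were 8.64 ± 0.20 and 7.55 ± 0.26 (SD, n = 4 each), a 2.13-fold lower level in old fibroblasts (-1.09 ± 0.14 SE, adjusted p = 0.00299). Its close relative Nrp2 gave 9.19, 9.53, 9.56 and 9.28 in young and 9.37, 9.40, 9.18 and 9.27 in old mice. These values overlapped, and Nrp2 did not pass (-0.085 ± 0.099, adjusted p = 0.801). A second probe set of Nrp2 had the opposite sign, with old mice above young mice, and did not pass either (0.205 ± 0.07, adjusted p = 0.161), and the mean of both sets differed by 0.06. The difference between the neuropilins was not itself tested.

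Semaphorin 3A (Sema3a) is the secreted repellent that signals through Nrp1 and plexin-A receptors. Young mice had 7.02, 7.62, 7.46 and 7.15 and old mice 5.99, 6.61, 6.26 and 6.38. The ages did not overlap. Means were 7.31 ± 0.28 and 6.31 ± 0.26 (SD, n = 4 each), 2.00-fold lower in old fibroblasts (Sema3a fell by 1.00 ± 0.16 SE, adjusted p = 0.00787). The mice of an age stood in nearly the same order for Sema3a as for Nrp1: young mice 2 and 3 were above young mice 1 and 4, and the old mice ran 2, 4, 3, 1 from high to low. Such an order of the young mice was common, since 15% of all genes above the dim threshold also had young mice 2 and 3 above the others, and 18% of the guidance genes above it.

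**Figure D2:**
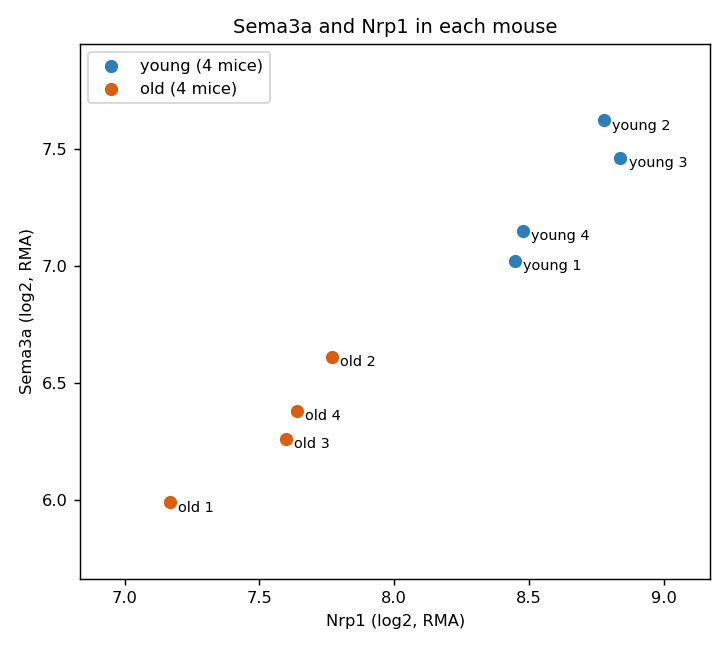
Level of Sema3a (vertical axis) against Nrp1 (horizontal axis), log2 expression, 1 point per mouse, young in blue and old in orange. The ages form separate clusters, with the old mice at or below 7.77 for Nrp1 and 6.61 for Sema3a, so no correlation over all 8 mice is given.

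Ephrin A1 (Efna1), a ligand anchored to the cell surface that binds EphA receptors, had the smallest p of the 70. It read 8.84, 8.69, 8.53 and 8.83 in young mice and 7.63, 7.68, 7.88 and 7.89 in old mice. The gap between the ages was wider than the spread within either. Means were 8.72 ± 0.15 and 7.77 ± 0.13 (SD, n = 4 each), 1.94-fold lower in old fibroblasts (-0.95 ± 0.10 SE, adjusted p = 0.000937).

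Semaphorin 5A (Sema5a) is a membrane-bound semaphorin with thrombospondin repeats. The young mice had 8.10, 7.64, 7.97 and 7.96 and the old mice 7.05, 7.08, 7.37 and 7.13. The lowest young mouse remained above the highest old mouse. Means were 7.92 ± 0.20 and 7.16 ± 0.15 (SD, n = 4 each), 1.69-fold lower (-0.76 ± 0.11 SE, adjusted p = 0.005).

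Those 4 genes passed in all 16 alternative fits, the 8 that left out a mouse among them. Leaving out each mouse in turn moved Nrp1 between -1.17 and -0.97, Sema3a between -1.10 and -0.90, Efna1 between -1.02 and -0.91, and Sema5a between -0.85 and -0.70. Without old mouse 3, which had the highest mean of keratinocyte markers, the differences were -1.11 for Nrp1, -0.99 for Sema3a, -0.99 for Efna1 and -0.83 for Sema5a. Within the first and the second run of title numbers the differences were -1.15 and -1.04 for Nrp1, -1.02 and -0.99 for Sema3a, -1.11 and -0.80 for Efna1, and -0.81 and -0.72 for Sema5a.

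The promoters of these 4 genes are shown because the genes passed in every alternative fit. Sequences are RefSeq's on GRCm38.p6, from 250 bases before to 50 after an annotated start, written 5′ to 3′ along the gene. They lie at chr8:128358823-128359122 (plus strand) for Nrp1, chr5:13396534-13396833 (plus) for Sema3a and chr15:32244563-32244862 (plus) for Sema5a. Efna1 has starts at chr3:89280902-89281201 and chr3:89279596-89279895 (both minus). Capitals mark GC boxes, GGGCGG or its reverse complement CCGCCC.
Nrp1: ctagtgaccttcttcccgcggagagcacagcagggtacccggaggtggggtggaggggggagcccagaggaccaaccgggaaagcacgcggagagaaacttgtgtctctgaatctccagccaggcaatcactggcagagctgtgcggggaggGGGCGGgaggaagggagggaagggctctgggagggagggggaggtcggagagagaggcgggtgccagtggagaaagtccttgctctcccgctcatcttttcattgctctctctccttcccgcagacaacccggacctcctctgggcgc
Sema3a: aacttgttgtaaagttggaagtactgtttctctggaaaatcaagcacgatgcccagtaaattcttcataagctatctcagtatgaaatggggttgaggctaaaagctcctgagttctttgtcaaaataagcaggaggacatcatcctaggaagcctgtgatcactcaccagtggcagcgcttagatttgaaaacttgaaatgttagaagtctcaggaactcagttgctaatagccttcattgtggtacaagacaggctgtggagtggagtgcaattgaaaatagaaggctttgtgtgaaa
Sema5a: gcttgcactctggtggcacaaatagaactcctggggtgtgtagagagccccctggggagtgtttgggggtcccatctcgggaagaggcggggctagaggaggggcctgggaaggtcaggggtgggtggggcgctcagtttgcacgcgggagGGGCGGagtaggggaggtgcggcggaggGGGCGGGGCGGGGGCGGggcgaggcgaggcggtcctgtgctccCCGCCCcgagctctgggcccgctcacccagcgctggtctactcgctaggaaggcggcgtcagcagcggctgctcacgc
Efna1, upstream start: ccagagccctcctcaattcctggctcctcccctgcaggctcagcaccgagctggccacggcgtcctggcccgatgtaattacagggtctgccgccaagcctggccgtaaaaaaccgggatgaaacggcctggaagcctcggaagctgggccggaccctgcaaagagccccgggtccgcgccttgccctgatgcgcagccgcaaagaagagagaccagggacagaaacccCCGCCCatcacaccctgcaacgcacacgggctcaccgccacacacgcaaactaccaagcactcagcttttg
Efna1, downstream start: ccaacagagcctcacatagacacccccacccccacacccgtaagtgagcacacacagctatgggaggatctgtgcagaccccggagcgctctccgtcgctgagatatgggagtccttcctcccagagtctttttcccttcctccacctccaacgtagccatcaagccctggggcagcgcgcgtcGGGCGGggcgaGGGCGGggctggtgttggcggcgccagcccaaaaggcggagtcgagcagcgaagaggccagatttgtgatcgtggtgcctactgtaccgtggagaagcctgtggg
Sema3a stood apart in base composition. Its window is 41.3% G and C and holds no GC box, while Nrp1 is 64% with 1, Sema5a 71.3% with 5, and Efna1 63.7% with 1 and 63.3% with 2. The median over 32851 promoters, with a median length of 300 bases, was 52.7%, and 35.7% of them hold a GC box on either strand. With Sema3g and Ntng2 added, 5 of 7 promoters, from 4 of 6 genes, held a GC box and 1 (Ntng2) held a CCAAT box (CCAAT or ATTGG), found in 37.4% of all promoters. Of 4 other motifs, read on both strands, the 7 windows held none: TATAAA (13.6% of all promoters), CACGTG (7.15%), TGACTCA (5.2%) and GGAATG (14.7%). The motifs were chosen after the called genes were known, and a match describes letters and not a bound site.

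Netrin G2 (Ntng2) is tethered to the membrane and binds the NGL-2 protein encoded by Lrrc4, not Dcc. Young mice had 7.72, 7.55, 7.30 and 7.40 and old mice 6.80, 7.20, 6.65 and 6.71. Old mouse 2 was the highest of its age and came closest to the young mice, and the ages did not overlap. Means were 7.49 ± 0.18 and 6.84 ± 0.25 (SD, n = 4 each), 1.57-fold lower (-0.65 ± 0.13 SE, adjusted p = 0.0273). The call was lost without young mouse 1 or 2 or without old mouse 1, 3 or 4, with an adjusted p of up to 0.081, and the direction held. Lrrc4 itself did not pass (-0.06 ± 0.09, adjusted p = 0.853).

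Semaphorin 3G (Sema3g), a secreted class 3 semaphorin, lay near the dim threshold. Its values were 5.31, 5.11, 5.33 and 4.94 in young and 4.78, 4.81, 4.57 and 4.55 in old mice. The ages did not overlap, though all old mice were under 5.10. Means were 5.17 ± 0.18 and 4.68 ± 0.14 (SD, n = 4 each), 1.41-fold lower (-0.495 ± 0.11 SE, adjusted p = 0.0326). The call held in only 2 of the 8 fits that left out a mouse, without young mouse 4 or old mouse 1, and the adjusted p reached 0.0927 without old mouse 4. Sema3g is also known from endothelium, whose marker list is given above.

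**Figure D3:**
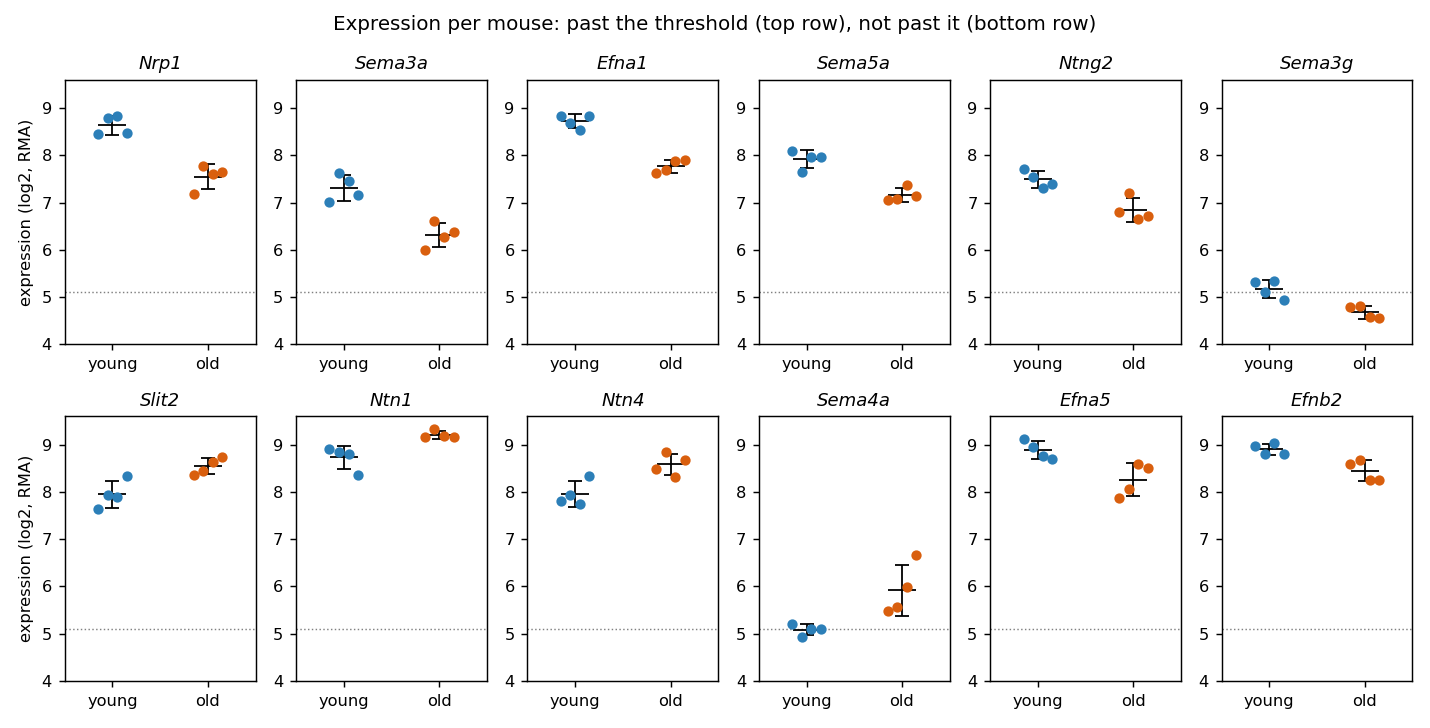
Log2 expression in each mouse (1 point each) of 12 guidance genes, with the mean and SD of 4 young (blue) and 4 old (orange) mice; the dotted line is the dim threshold of 5.10. In the upper row are the 6 genes past the threshold, whose ages do not overlap; in the lower row are 6 that did not pass, of which the ages overlap for Ntn4 alone.

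The plexins, the signalling receptors of the semaphorins, differed little. None of the 10 entries with a plexin symbol, Plxna4os1 included, passed in limma, 2 had an unadjusted p under 0.05, and the differences ran from -0.21 to 0.21. Of the A-group plexins that pair with neuropilins, Plxna1 was 8.13 ± 0.08 in young and 7.93 ± 0.14 in old mice (SD, n = 4 each, adjusted p = 0.269). Plxna2 differed by 0.21 ± 0.12 SE (adjusted p = 0.487), Plxna3 by 0.03 ± 0.08 (0.936) and Plxna4 by 0.11 ± 0.08 (0.604). Plxnb3, a receptor of Sema5a, differed by -0.11 ± 0.08 (adjusted p = 0.636).

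Beyond the 3 called semaphorins, the other 17 did not pass in the main fit, which had no covariate. Of the 20, 6 had ages that did not overlap (30%), beside 9.7% of all genes and 13.4% of all genes above the dim threshold. Sema3b and Sema3c, secreted like Sema3a, had positive differences of 0.30 ± 0.12 SE (adjusted p = 0.233) and 0.55 ± 0.17 (0.126). Sema3c had 8.58, 7.89, 7.99 and 8.50 in young and 8.50, 8.88, 8.95 and 8.82 in old mice. Old mouse 1 lay within the young range and the other old mice above it. Sema3d, dim in both ages, differed by 0.08 ± 0.11 (adjusted p = 0.848).

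Class 4 semaphorins, which are membrane-bound, had differences of both signs and no call in the main fit. Sema4a had 5.21, 4.93, 5.09 and 5.10 in young and 5.47, 5.57, 5.98 and 6.66 in old mice. All old mice were above all young mice, but old mouse 4 was far above old mouse 1, and the difference of 0.84 ± 0.23 SE did not pass (adjusted p = 0.0822). Sema4d had 5.47, 6.13, 5.38 and 5.26 in young and 5.08, 4.79, 4.90 and 4.86 in old mice. The ages did not overlap and young mouse 2 was highest (-0.65 ± 0.17, adjusted p = 0.0748). Sema4f had 7.17, 7.45, 7.22 and 6.93 in young and 6.85, 6.79, 6.29 and 6.77 in old mice. Old mouse 3 was lowest, and the difference was -0.52 ± 0.14 (adjusted p = 0.0908). With the block all 3 passed, at adjusted p of 0.0406 for Sema4a, 0.0459 for Sema4d and 0.0435 for Sema4f. All 3 also passed with array weights. Sema4a and Sema4d passed too with a prior by mean level and with dim genes left out.

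No ephrin besides Efna1 passed in the main fit. Of 7 ephrins, 1 was called lower, 5 had an unadjusted p under 0.05, and the median difference was -0.39. That p level was met by 15.1% of all genes and by 21.6% of those above the dim threshold. Efna5, another EphA ligand, had 9.13, 8.96, 8.77 and 8.70 in young and 7.87, 8.06, 8.60 and 8.50 in old mice. The ages did not overlap, yet old mice 3 and 4 came close to the young (-0.63 ± 0.17 SE, adjusted p = 0.0777), and the difference was -1.08 in the first run of title numbers and -0.19 in the second. Efnb2, a transmembrane ephrin that binds EphB4, had 8.97, 8.81, 9.04 and 8.80 in young and 8.59, 8.68, 8.26 and 8.25 in old mice. Again the ages did not overlap (-0.46 ± 0.11, adjusted p = 0.0586, and 0.0367 with the block). The related Efnb1 differed by -0.39 ± 0.10 (adjusted p = 0.0809), and Efnb3, dim in both ages, by 0.29 ± 0.08 (0.0859). Efnb1 passed with the block. Among the other alternative fits, Efnb1, Efnb2 and Efnb3 passed with array weights, and Efna5 after a further quantile normalization. Efnb1 also passed with the mean of probe sets and without young mouse 4. Efnb2 did so with dim genes left out and without old mouse 2, and Efnb3 with a prior by mean level and without young mouse 4.

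Eph receptors gave no call in the main fit. Of 13, 7 were dim, 2 had an unadjusted p under 0.05 in limma, and the differences ran from -0.18 to 0.53. The highest was Epha1, a receptor of Efna1, with 6.81, 6.67, 6.19 and 6.12 in young and 7.12, 7.24, 6.76 and 6.80 in old mice. The ages overlapped (0.53 ± 0.17 SE, adjusted p = 0.149), but within each run of title numbers both old mice were above both young mice. With the title number block its adjusted p was 0.00393, and Epha1 also passed with the mean of probe sets. Epha3 differed by -0.17 ± 0.19 (adjusted p = 0.786) and Epha4 by 0.395 ± 0.19 (0.375). Epha2, Epha5, Epha6, Epha7 and Epha8 were dim in both ages, with differences from -0.17 to 0.07.

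Secreted Slit and netrin ligands had the positive differences nearest to a call. Of 6 netrins, 1 was lower (Ntng2), and their differences ran from -0.65 to 0.63. Slit2, a repellent that binds Robo1 and Robo2, had 7.63, 7.94, 7.89 and 8.34 in young and 8.37, 8.45, 8.63 and 8.74 in old mice. The old mice were all above the young, by a narrow margin over young mouse 4 (0.60 ± 0.14 SE, adjusted p = 0.0538, and 0.0177 with the block). Slit1 differed by 0.14 ± 0.07 (adjusted p = 0.427). Robo1, the only Robo above the dim threshold, differed by -0.35 ± 0.20 (adjusted p = 0.496), and Robo2 by -0.38 ± 0.09 (0.0524) at a dim 3.95 and 3.57. Robo2 passed with the block. Both Slit2 and Robo2 also passed with a prior by mean level and with array weights.

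Netrin 1 (Ntn1) had 8.91, 8.84, 8.81 and 8.37 in young and 9.17, 9.34, 9.18 and 9.17 in old mice. The ages did not overlap and the old mice were tightly grouped (0.48 ± 0.12 SE, adjusted p = 0.0525, and 0.0323 with the block). Netrin 4 (Ntn4), a laminin-related netrin of basement membranes, had 7.80, 7.94, 7.74 and 8.34 in young and 8.48, 8.85, 8.32 and 8.68 in old mice. Young mouse 4 overlapped old mouse 3 (0.63 ± 0.15, adjusted p = 0.0525). Both Ntn1 and Ntn4 also passed with array weights, with the mean of probe sets and with dim genes left out. Among netrin receptors, Unc5b differed by 0.00 ± 0.18 (adjusted p = 0.998), and none of the 6 genes with the Unc5 prefix passed in limma, with 0 at an unadjusted p under 0.05. Dcc differed by 0.12 (adjusted p = 0.654) and Neo1 by -0.24 (0.674).

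**Figure D4:**
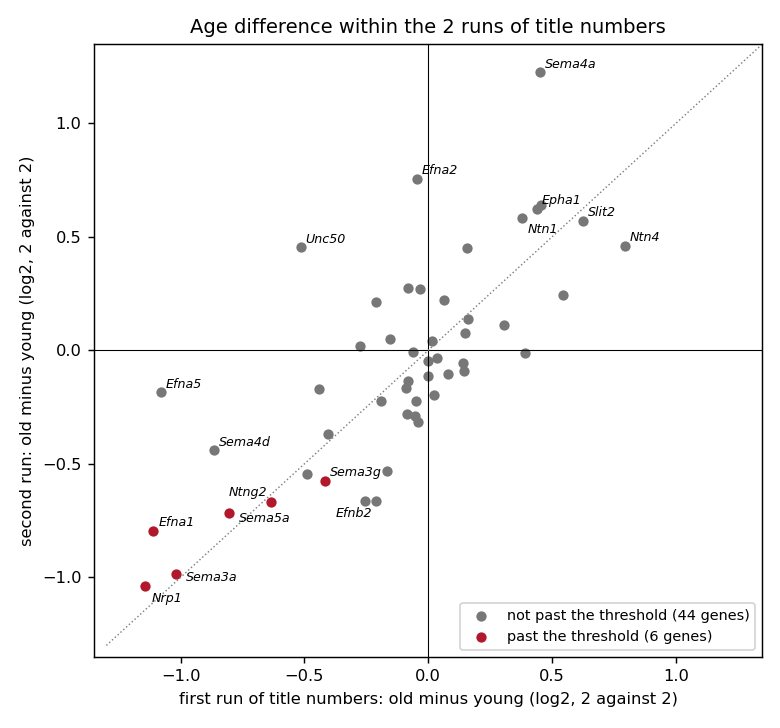
Old minus young (log2) within the first run of title numbers (horizontal axis) and within the second (vertical axis), 2 young and 2 old mice each, for the 50 guidance genes above the dim threshold; the dotted line marks equal differences. The 6 called genes (red) are below 0 in both runs, from -1.15 and -1.04 for Nrp1 to -0.42 and -0.58 for Sema3g, while Efna5 (-1.08 and -0.19) and Sema4a (0.45 and 1.23) lie away from the line.

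Of the 70 genes, 40 had several probe sets, and the brightest stood for the gene above. A fit over all 28898 probe sets with 1 symbol called 3.29% of them, and of the 135 guidance probe sets 10 were lower and 3 higher. Nrp1 was lower on all 3 of its probe sets, by 1.09, 1.13 and 0.445, with adjusted p of 0.00403, 0.00393 and 0.0375. Sema3a was lower on 2 of 3 (the brightest, and a dimmer set at -0.44), and its other set, above the dim threshold, gave -0.27 ± 0.20 SE (adjusted p = 0.628). Sema5a passed on 1 of 4, with -0.45, -0.30 and 0.00 on the others, and the second sets of Efna1 (-0.06) and Ntng2 (-0.04) were dim and did not pass.

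Genes without a call on their brightest probe set had one on another. Efnb2 was lower on a second set (-0.47, adjusted p = 0.0258). Higher calls came from a second set of Epha4 (0.76 ± 0.14 SE, adjusted p = 0.0224), Epha1 (0.57 ± 0.12, 0.0357) and Sema3c (0.86 ± 0.20, 0.0499). In each of these 4 genes all probe sets differed in the same direction.

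**Figure D5:**
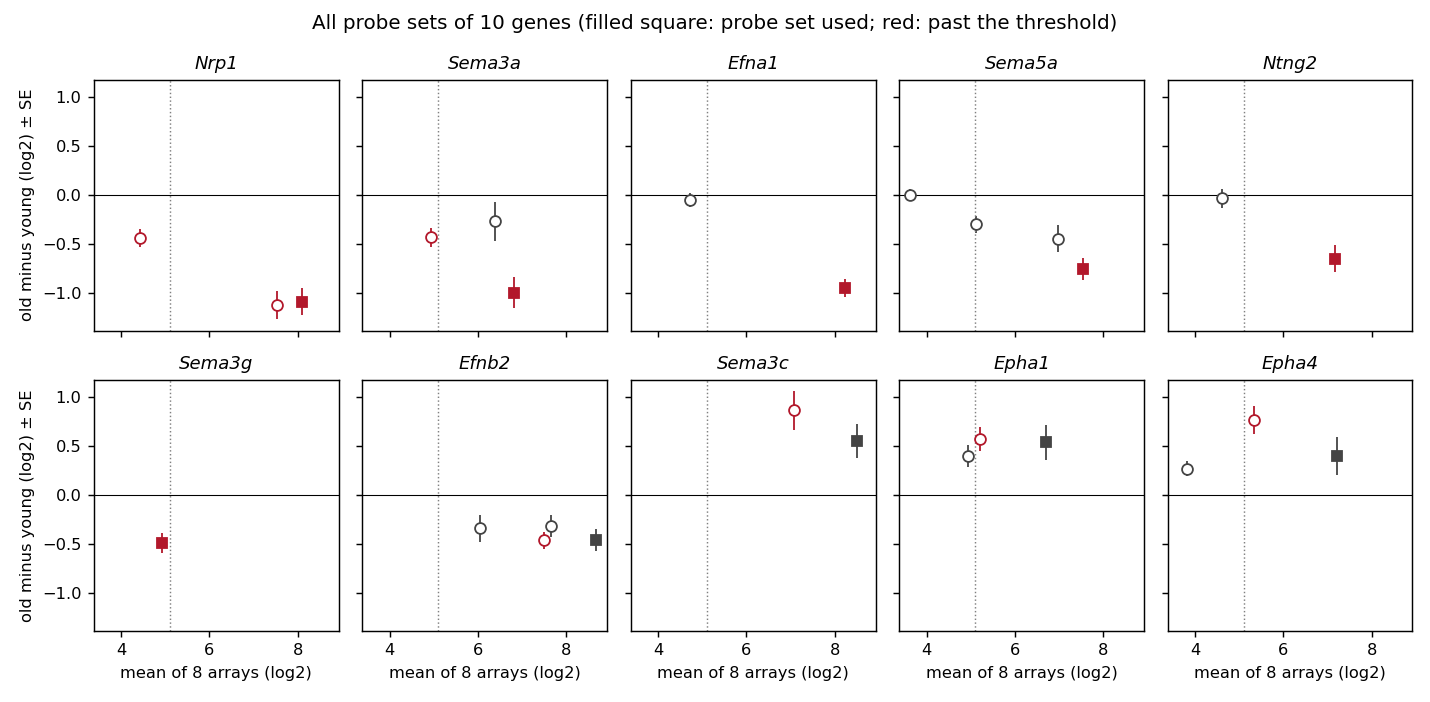
Old minus young (log2, vertical axis, with SE) against the mean over 8 arrays (log2, horizontal axis) for every probe set of 10 guidance genes. Filled squares are the probe sets that stood for the gene, red marks adjusted p under 0.05 over all probe sets, and the dotted line is the dim threshold of 5.10; Nrp1 is red on all 3 and Sema5a on 1 of 4.

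Genes that work with the guidance receptors were taken from a list of 100 co-receptors, ligands and cytoplasmic effectors, of which 92 were measured. Of these, 1 was higher and 5 were lower (6.52%, beside 3.97% of all genes), and the median difference was -0.03. The list was bright, with 75 of the 92 above the dim threshold, and among all genes above it 6.06% were called. Met, the hepatocyte growth factor receptor that associates with B-group plexins, rose: it had 5.62, 5.37, 5.49 and 5.54 in young and 6.90, 6.36, 7.03 and 7.09 in old mice. The ages were far apart, 2.53-fold higher in old fibroblasts (1.34 ± 0.15 SE, adjusted p = 0.00148), and a second probe set rose by 1.00 (adjusted p = 0.00403).

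Among the lower genes, Vegfc, a VEGF family ligand that binds neuropilin 2, fell by 0.71 ± 0.11 SE (adjusted p = 0.00694). It had 6.73, 6.96, 6.62 and 7.08 in young and 6.22, 6.26, 6.02 and 6.05 in old mice. Plxdc2, a membrane protein with a plexin-like domain, fell by 0.535 ± 0.07 (0.003), the small GTPase Rhob by 0.56 ± 0.11 (0.019), the actin-oxidising enzyme Mical2 by 0.74 ± 0.14 (0.0218), and Chn1, a Rac inhibitor downstream of EphA4 and dim here, by 0.56 ± 0.13 (0.0425). Met, Vegfc and Plxdc2 passed without any single mouse. Rhob and Mical2 were lost in 3 such fits each, with an adjusted p of up to 0.0596 and 0.066, and Chn1 in 7, up to 0.121. Vegfa, a VEGF that binds Nrp1, differed by 0.13 ± 0.08 (adjusted p = 0.535).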

How the data were processed

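RNA from 5000 sorted cells per mouse was amplified and labelled, per the labels' protocols, and each of the 8 mice is a biological replicate. The deposited values are log2 expression per probe set, which the authors made, per the submitters' processing notes, with affy and RMA; RMA adjusts background, normalizes arrays to 1 distribution and summarises probes, which can shrink differences of dim genes. Tool versions, array model and filters are not stated in these sources. The number of arrays limits the precision.

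Of 45141 probe sets, 28898 had 1 symbol in the platform annotation (551 had several and 15692 none), and the brightest per gene left 17097 genes. Old was compared with young in limma 3.58.1 under R 4.3.3 (lmFit, eBayes, 2-sided, no covariate), with Benjamini-Hochberg adjustment over all genes. The code was tested on simulated data. Alternatives changed the prior, array weights, dim filter, probe set rule, scaling, a title number block, the threshold and the set of mice.

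Values per mouse are given for called guidance genes, for those above the dim threshold whose ages do not overlap or that are among the 12 largest differences, and partners of called genes are named; Efnb1, Efnb3, Slit1, Robo1, Robo2, Unc5b, Dcc, Neo1, Vegfa, Lrrc4, Efna2 and Unc50 fall outside that rule and were chosen with their values in view. The members and lists were chosen with earlier results of these data known. Promoters came from a RefSeq table (GRCm38.p6) that held 60 of the 70 genes.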

Additional observations from a re-analysis of the deposited data

Results flagged for a closer look

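In 2 of 62 groups of 4 mice (31 named genes, 2 ages) a single mouse lay far from the other 3 relative to the group's range, where chance alone marks about 1 group in 20. Ntn1 in old mouse 2 was 9.34 with the next mouse at 9.18. Sema4f in old mouse 3 was 6.29 with the next at 6.77. This mouse also had the highest mean of the keratinocyte markers, with Krt10, Krt1, Krt5 and Dsp highest in it. Krt14, Krt15, Trp63 and Cdh1 were highest in other mice, and Epcam was equally high in old mouse 2. The part of these markers was not tested.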

How the results depend on the processing

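The 6 lower and 0 higher guidance calls became 8 lower and 4 higher with a prior by mean level, 11 and 6 with array weights, 7 and 4 without genes whose mean over the 8 arrays is under 5.10 (49 guidance genes tested), 7 and 4 with the mean of probe sets, 7 and 1 after a further quantile normalization, 11 and 4 with the title number block, and 12 and 5 at an adjusted p under 0.1. Leaving out each mouse gave 4 to 7 lower and 0 to 4 higher, with 4 lower without old mouse 3 or 4. A robust prior and median centring kept both counts. Over all genes, the 311 higher and 368 lower calls became 473 higher with array weights and 494 higher and 588 lower at 0.1, and ran from 183 to 303 higher and 231 to 343 lower without a mouse. The effector list's 1 higher call became 2 with array weights, the mean of probe sets, quantile normalization or the 0.1 threshold, and 1 to 2 without a mouse; its 5 lower calls became 9 at 0.1 and 2 to 6 without a mouse, with 2 without young mouse 2 or 3 or old mouse 4. Ntng2 was lost with the mean of probe sets (adjusted p = 0.0802), and Sema3g, whose mean over the 8 arrays is 4.93, was left out by the filter on that mean. None of the 6 called guidance genes changed direction in these fits, and the causes of the changed counts were not tested. Signal near the dim threshold limits Sema3g, Robo2 and the dim Eph receptors.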

Other observations

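For Efna2 and Unc50 the difference between the ages was not alike in the runs of title numbers, which was not tested. Efna2, a ligand of EphA receptors, was 6.18 and 6.21 in the old mice of the first run and 7.09 and 7.19 in those of the second, with young mice at 6.35 and 6.13 and at 6.55 and 6.22. The old mice of the second run were thus above all other mice. Unc50, which only shares its prefix with the netrin receptors, differed between the ages by -0.515 in the first run and 0.455 in the second. Neither passed in the comparison of ages (adjusted p = 0.566 and 0.979).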
